A study of Mus musculus with 5 samples.

Results

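Pericentral hepatocytes of the mouse liver were described here as the 709 cells that the authors' metadata place in cluster 5 of the liver libraries on the ApoE background, where the authors give them the subtype name "HC Hnf4a hi". They are 709 of the 7422 cells that the authors call hepatocytes in those libraries, of 8662 liver cells there and of 14878 cells in the whole series. The study used droplet single-cell RNA-seq with a 10x Genomics kit, which tags each captured RNA molecule with a unique molecular identifier (UMI), and its title concerns liver epsins, endocytic adaptor proteins, in dyslipidemia. Of the groups that bear on cluster 5, one is the liver library labelled DKO on an ApoE background, with 406 cells of the cluster, and the other is the liver library labelled WT on the same background, with 303. The protocol names Liver-DKO mice but leaves the abbreviation unexplained, mentions 3 mice without tying them to libraries, and gives no age, sex, diet, Cre line or deleted exon in the sources used here. Each group is 1 library, so no difference between libraries has a replicate check, no p-value is given, and the 95% intervals in parentheses cover counting error only.

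Liver lobules are organised between a portal triad, where blood enters, and a central vein, where it leaves. Hepatocytes around the central vein receive Wnt signals from its endothelium, and beta-catenin with TCF factors is known to maintain their programme of glutamine synthesis and of drug and bile acid metabolism. Periportal hepatocytes carry most of the urea cycle and of gluconeogenesis. Glul, glutamine synthetase, marks the thin layer of cells that touches the central vein and takes up the ammonia that the urea cycle has left.

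Markers of the pericentral zone led the cluster, and the name used here rests on them. The cluster was formed on the same counts, so this describes it and does not test the name. The 6 defining markers were among its 10 leading genes, and each stood higher in cluster 5 than in every other hepatocyte cluster of the same library. Hnf4a, the hepatocyte transcription factor in the authors' subtype name, did not set the cluster apart from clusters 7 and 8. It stood at 316 CPM in the library labelled DKO and 235 CPM in that labelled WT, against 313 and 282 CPM in cluster 8 and 298 and 261 CPM in cluster 7. Among the hepatocyte clusters it was the highest in the library labelled DKO, and only clusters 7 and 8 were higher in that labelled WT. CPM is the count of a gene per 1000000 UMIs, summed over the cells of a cluster and library. Of 10 genes that mark T or NK cells, 6 had any UMI in cluster 5. Together they held 4 UMIs in the library labelled DKO and 4 in that labelled WT, with Cd3d, Cd3g, Trbc2 and Lck at 0. Kupffer cell markers held 8 and 2 UMIs with Cd5l, Vsig4, C1qa, C1qb, C1qc, Marco and Adgre1 at 0, and endothelial markers held 21 and 8 UMIs with Clec4g and Gpr182 at 0. Cholangiocyte markers held 1 and 0 UMIs, neutrophil markers 3 and 0, B or plasma cell markers 21 and 32, stellate cell or fibroblast markers 17 and 10, and pancreatic acinar markers 10 and 22. Haemoglobin and other erythroid genes were the exception in amount, with 125 UMIs (72.3 CPM) in the library labelled DKO and 10 (7.64 CPM) in that labelled WT, and Slc4a1 at 0.

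The members from both libraries were alike in depth. The cluster held 1728479 UMIs in the library labelled DKO and 1309250 in that labelled WT, with medians of 4239 and 4336 UMIs and 1679 and 1704 detected genes per cell. The median mitochondrial share was 13.3% and 15.3%. Cluster 5 made up 9.37% of cells labelled DKO and 7.0% of cells labelled WT. The other hepatocyte clusters used for comparison, 0 to 4, 6 to 8 and 13, were mostly shallower, with medians of 1478 and 1493 UMIs per cell over 2807 and 3712 cells. Clusters 7 and 8 were deep in both libraries, with medians of 5308 and 5281 UMIs in cluster 7 and 5845 and 4796 in cluster 8, while cluster 4 had 3817 and 2027. Clusters 14, 16 and 18, which the authors also call hepatocytes but which genes of other cell types lead, were left out of that comparison. Cluster 7 held 2397769 of the 7432963 UMIs of the other hepatocytes in the library labelled DKO. In that labelled WT it held 1118737 of 7460416. Pooled values of the other hepatocytes therefore hold a different cluster mix in each library, and the part of this mix in their ratios was not tested. The 2 libraries share 4 cell barcodes, 2 of them on cells of cluster 5. Epn1, the widely expressed epsin, was not lower in the members from the library labelled DKO. It had 143 UMIs (82.7 CPM) there and 97 UMIs (74.1 CPM) in the library labelled WT, a ratio of 1.12 (0.857 to 1.46). Epn2 had 14 and 5 UMIs, a ratio of 2.12 (0.722 to 7.52). These counts do not bear out the label, and a 3′ tag outside a deleted part checks nothing, so every direction below is between libraries labelled DKO and WT and not between genotypes.

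The sequences before 4 start sites are given here because these genes carry the zonal signal: Glul defines the cluster, Slc1a2 and Gstm3 are among the genes highest in its Glul-rich cells, and Cyp1a2 is spread more evenly over them. Each is the 250 bases before a RefSeq start on GRCm38.p6 (mm10), read 5′ to 3′ on the gene's own strand. They lie at chr1:153899679-153899928 (plus strand), chr2:102706188-102706437 (plus), chr3:107969175-107969424 (minus) and chr9:57683656-57683905 (minus). Capitals mark CTTTGAT or CTTTGAA on either strand, the letters of a TCF motif.
Glul: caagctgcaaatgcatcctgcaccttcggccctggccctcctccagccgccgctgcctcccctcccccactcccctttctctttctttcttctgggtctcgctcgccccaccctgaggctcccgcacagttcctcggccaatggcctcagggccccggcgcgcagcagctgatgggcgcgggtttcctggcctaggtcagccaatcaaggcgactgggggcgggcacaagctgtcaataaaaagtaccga
Slc1a2: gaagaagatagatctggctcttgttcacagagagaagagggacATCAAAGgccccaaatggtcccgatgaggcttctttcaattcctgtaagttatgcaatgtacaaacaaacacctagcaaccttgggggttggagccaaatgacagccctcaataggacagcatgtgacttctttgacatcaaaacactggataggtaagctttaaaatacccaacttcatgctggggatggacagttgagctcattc
Gstm3: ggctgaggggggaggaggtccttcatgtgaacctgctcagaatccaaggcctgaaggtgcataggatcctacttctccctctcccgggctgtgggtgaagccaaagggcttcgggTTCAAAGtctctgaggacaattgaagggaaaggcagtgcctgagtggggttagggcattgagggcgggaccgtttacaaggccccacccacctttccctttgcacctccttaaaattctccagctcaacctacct
Cyp1a2: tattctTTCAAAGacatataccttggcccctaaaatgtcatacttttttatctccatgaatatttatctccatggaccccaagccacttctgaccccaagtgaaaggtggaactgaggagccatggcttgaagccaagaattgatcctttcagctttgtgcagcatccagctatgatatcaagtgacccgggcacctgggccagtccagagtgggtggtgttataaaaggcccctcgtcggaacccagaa
The motif letters occurred in the sequences of Slc1a2, Gstm3 and Cyp1a2, all on the opposite strand, and not in that of Glul. The Slc1a2 start is internal to the gene, which runs from 102658659 to 102790784 on chromosome 2 in GENCODE vM21. Of 32 pericentral landmark genes 23 had a listed promoter, and 8 of these held the letters (34.8%). They were Aldh1a1, Blvrb, Cyp1a2, Cyp2c29, Cyp2e1, Gstm3, Lect2 and Slc1a2. Of the 20 periportal landmark genes with a promoter, G6pc and Hal held them (10.0%), as did 8.63% of all 27025 genes with a listed promoter. A match is a description of letters and not a binding site.

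Glul (chromosome 1, 153899944 to 153909723 on mm10) had 4192 UMIs, or 2425 CPM (2352 to 2500), in members from the library labelled DKO, and 2613 UMIs, or 1996 CPM (1920 to 2074), in those labelled WT. In cluster 8 it had 525 and 438 CPM, and in the periportal cluster 7 it had 103 and 141 CPM. Cluster 5 thus stood at 7.4 times the other hepatocytes in the library labelled DKO and at 4.64 times in that labelled WT. Over cluster 8 it stood at 4.58 times (4.33 to 4.84) for both libraries together. Cluster 7, low in Glul, made up a larger share of the other hepatocytes in the library labelled DKO. Ratios over the other hepatocytes are therefore not like for like between the libraries. Oat, which passes ornithine toward glutamate and so feeds glutamine synthesis, had 2596 CPM (2521 to 2674) and 2738 CPM (2649 to 2829), against 725 and 765 CPM in cluster 8. Its ratios over the other hepatocytes were 5.40 and 4.0. Slc1a2, a glutamate transporter, had 1147 CPM (1097 to 1198) and 895 CPM (845 to 948), against 426 and 364 CPM in cluster 8. Its ratios were 6.19 and 3.45. These genes form the glutamine arm of the zone. Glul and Oat were lower in cluster 7 than in each of the other hepatocyte clusters compared, in both libraries.

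The metabolic markers were also highest in cluster 5. Cyp1a2, a cytochrome P450 of drug and aromatic amine metabolism, had 1056 CPM (1008 to 1105) among members labelled DKO and 1046 CPM (991 to 1103) among those labelled WT, against 552 and 498 CPM in cluster 8. Gulo, which makes the last step of vitamin C synthesis in mice, had 531 CPM (497 to 567) and 592 CPM (551 to 635), against 258 and 248 CPM in cluster 8. Cyp2c69 had 354 CPM (327 to 383) and 374 CPM (342 to 409), against 151 and 156 CPM there. Cyp2e1, the ethanol-inducible P450 of the central zone, had 4815 CPM (4712 to 4920) and 4015 CPM (3907 to 4125), against 3218 and 2509 CPM in cluster 8 and 225 and 499 CPM in cluster 7. Between clusters 7 and 8, cluster 8 stood closer to cluster 5 in these genes than cluster 7 did. Alb, albumin, ran the other way, being lowest in cluster 5 and highest in cluster 7 among the clusters compared, with 20689 and 24426 CPM in cluster 5, 27849 and 33662 CPM in cluster 8 and 59575 and 59440 CPM in cluster 7.

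**Figure D1:**
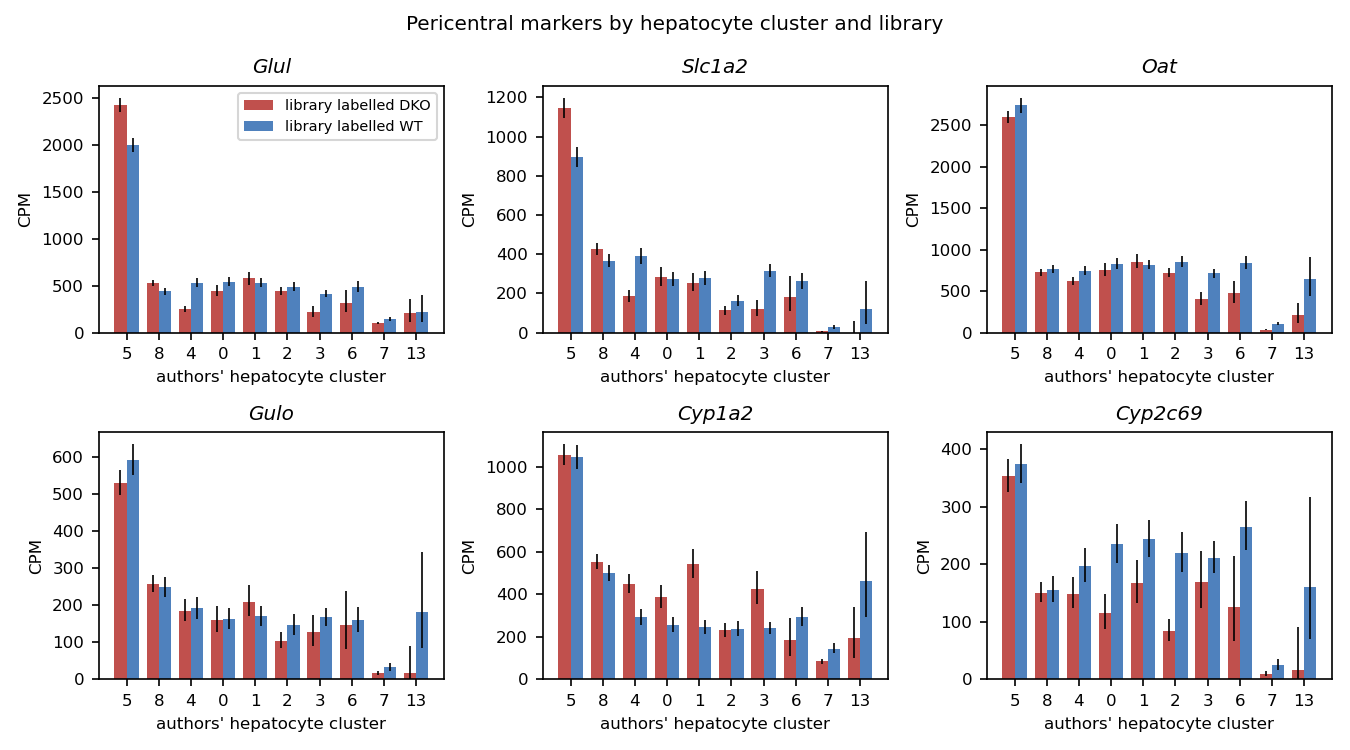
Levels of the 6 pericentral markers (CPM, linear axes from 0) in each hepatocyte cluster, with the library labelled DKO left of the library labelled WT and bars of the 95% Poisson interval. Cluster 5 is the highest for every marker in both libraries, cluster 8 is at 525 and 438 CPM for Glul, and cluster 7 is near 0 for Slc1a2 and Oat.

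Single cells were also described by the share with any UMI after each cell was thinned to 1000 UMIs. Oat was found in 77.4% (73.0 to 81.4) of 398 such cells of cluster 5 labelled DKO and 80.0% (75 to 84.4) of 295 labelled WT. The matching shares for Cyp1a2 were 59.5% and 59%, for Slc1a2 46.2% and 38%, for Glul 38.9% and 34.2%, for Gulo 34.4% and 44.7%, and for Cyp2c69 26.1% and 31.9%. T cells, set beside them as a gauge of free RNA, gave 16.6% and 24.7% for Oat and 12.2% and 16.5% for Glul. They gave 6.35% and 10.6% for Cyp1a2 and 2.76% and 3.53% for Slc1a2. Whether T cells use Oat or Glul themselves was not tested, so those shares are not free RNA alone. The unthinned median depths of the T cells were 1887 and 2685 UMIs. Without thinning, Glul was found in 60.6% and 67.7% of the members.

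Beyond the markers, 475 of 8282 genes with at least 100 summed UMIs were at least 1.5-fold higher in cluster 5 than in the other hepatocytes (5.74%), and 769 were at least 1.5-fold lower (9.29%). Since the clusters were made from these genes, these are descriptions. All 30 pericentral landmarks with enough UMIs, of 32 listed, were higher in cluster 5, and 22 of them were past the fold (median log2 ratio 0.96, against -0.02 over all genes tested). All 29 periportal landmarks with enough UMIs, of 30, were lower, 20 of them past the fold (median -0.85). Rdh9, a retinol and steroid dehydrogenase, had a ratio of 4.95 (4.41 to 5.57). Slc13a3, a carrier of dicarboxylates, stood at 5.34 (4.10 to 6.96), Lhpp, a phosphatase, at 3.79 (3.24 to 4.41), and the glutathione transferases Gstm3 and Gstm2 at 3.74 (3.09 to 4.52) and 3.28 (2.76 to 3.89). Vldlr, a lipoprotein receptor, stood at 4.21 (3.25 to 5.44), and Fitm1, which acts in lipid droplet formation, at 3.79 (3.03 to 4.73). Cyp2c50 had a ratio of 2.44 (2.33 to 2.55).

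Wnt pathway genes were detected at low levels. Lgr5, a receptor for R-spondins that amplify Wnt signals, had 84 UMIs in the members, or 27.7 CPM, against 8.66 CPM in the other hepatocytes, 15.5 CPM in cluster 8 and 0.853 CPM in cluster 7. After thinning, it was found in 3.52% of members labelled DKO and 1.69% of those labelled WT, and in 0 of 362 and 0 of 85 T cells. Thinned to 2000 UMIs, the Lgr5 shares of the members were 4.23% and 5.36%, the other way round between the libraries. Axin2, a feedback inhibitor, stood at 9.22 CPM against 3.02 CPM in the other hepatocytes. After thinning, Axin2 was found in 0.503% of members labelled DKO and 1.69% of those labelled WT, and in 1.10% and 4.71% of T cells. At this depth its share was thus no higher than in T cells. At 500 UMIs the Axin2 shares were 0.493% and 0.330% of members, against 0.259% and 0% of T cells. Whether T cells use Axin2 themselves was not tested, so their share is not a measure of free RNA for this gene. Tbx3, a Wnt-responsive transcription factor, stood at 25 against 13 CPM, and Notum, which inactivates Wnt proteins, at 22.4 against 14.2 CPM. In cluster 8, Tbx3 and Notum had 26 and 20.3 CPM, and Notum in cluster 5 was at 1.97 times the other hepatocytes in the library labelled DKO and at 0.858 times in that labelled WT. Rhbg, an ammonium transporter of the perivenous layer, stood at 10.9 against 1.88 CPM. It was found after thinning in 2 of 398 and 5 of 295 members (0.503% and 1.69%), and in 0.552% and 0% of T cells. These are few cells, and the order changed with depth. Thinned to 2000 UMIs, the shares for Rhbg were 1.69% and 1.15% of members and 0% and 0% of T cells. Of 16 Wnt and beta-catenin list genes with enough UMIs, 12 were higher in cluster 5 and 4 lower, 6 of the higher ones past the fold. Tcf7l2, Apc and Lrp6, which are general parts of the pathway, had ratios of 0.885, 0.818 and 0.794.

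On the low side were enzymes of the portal end of the lobule. Cyp2f2, a P450 used as a periportal marker, had 54.0 CPM against 419 CPM in the other hepatocytes (ratio 0.129, 0.110 to 0.151). Sds, which deaminates serine, stood at 9.88 against 215 CPM, and Etnppl, a phosphoethanolamine lyase, at 9.55 against 114 CPM. Hal, which starts histidine breakdown, stood at 84.6 against 460 CPM, and Gls2, the liver glutaminase that supplies ammonia to the urea cycle, at 51.0 against 185 CPM. Cryl1, a lambda-crystallin-type dehydrogenase, had the lowest ratio with any UMI, 0.0175 (0.00211 to 0.0634). Chrm3, a muscarinic receptor, had no UMI in cluster 5, against 115 UMIs (7.72 CPM) in the other hepatocytes. The interval of its ratio ran from 0 to 0.160. Counted against a floor of 3 UMIs over the cluster, Chrm3 was 7.82-fold lower there, without counting error. Genes of the urea cycle were lower to a smaller degree, with Cps1, its first enzyme, at 0.651 and Ass1 at 0.524. AY036118 and Filip1l stood at 0.0993 and 0.100 of the other hepatocytes. Both were higher in T cells than in cluster 5, at 4241 and 3942 CPM for AY036118 and 183 and 160 CPM for Filip1l.

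Within cluster 5, Glul was not spread over all cells but concentrated in about 1 cell in 5. The most Glul-rich cell had 117 UMIs in the library labelled DKO and 105 in that labelled WT, while the median cell had 1 in each. In 160 and 98 cells no Glul UMI was found. Cells with at least 3000 CPM of Glul are here called Glul-rich. They numbered 97 of 406 (23.9%, 19.8 to 28.3) in the library labelled DKO and 57 of 303 (18.8%, 14.6 to 23.7) in that labelled WT. These intervals take the cells of 1 library as separate draws, so they cannot tell whether the shares differ between the groups. The Glul-rich cells held 91.8% and 88.3% of the cluster's Glul UMIs. Cells under 1000 CPM, here called Glul-poor, numbered 286 and 225, and 44 cells in all lay between. The bounds were set after the values were seen, and the classes are ranges of 1 gene and not cell types. Depth was alike in both ranges, with medians of 4674.5 UMIs in Glul-rich and 4258 UMIs in Glul-poor cells.

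**Figure D2:**
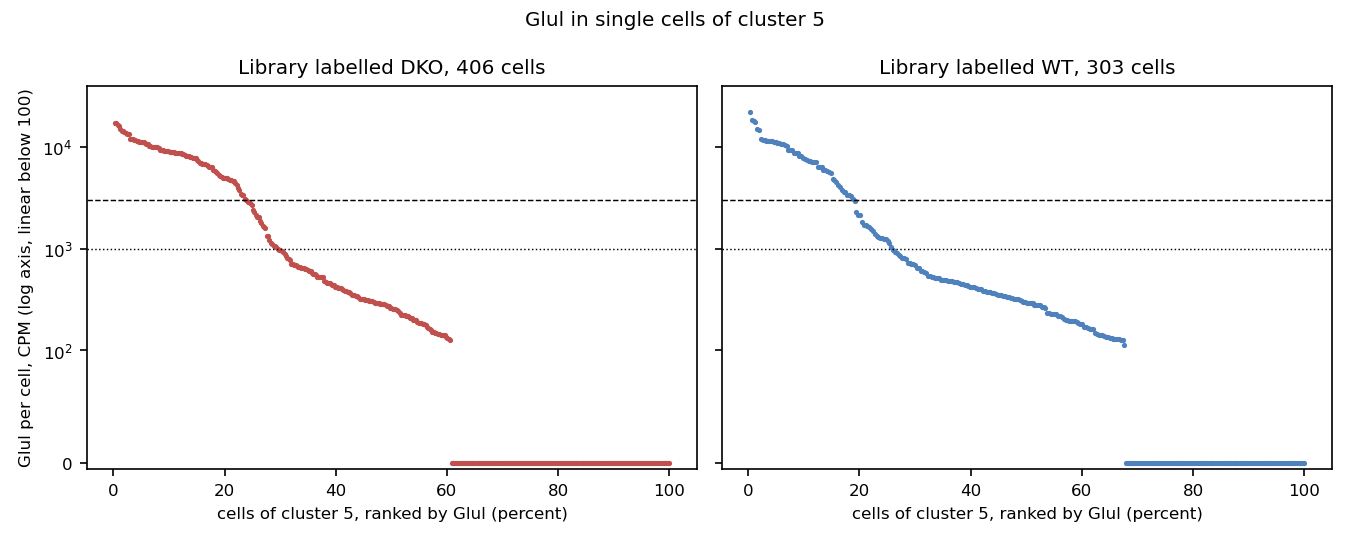
Glul per cell (CPM, log axis, linear below 100) for all cells of cluster 5, ranked from high to low, with the library labelled DKO on the left and that labelled WT on the right. The dashed line marks 3000 CPM and the dotted line 1000 CPM, and the curves drop steeply between them after 23.9% and 18.8% of the cells.

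The Glul-rich cells were not confined to the cluster. Among cells with at least 3000 CPM and at least 10 Glul UMIs, 86 and 53 lay in cluster 5, 16 and 6 in cluster 8, 2 and 3 in cluster 4, 5 and 2 in cluster 1, 1 and 1 in cluster 0, 3 and 2 in cluster 2, 1 and 0 in cluster 3, and none in clusters 6, 7 and 13. The other clusters are mostly shallower, so 10 UMIs are harder to reach there. Other markers were less concentrated than Glul. The 41 cells labelled DKO and 31 labelled WT with the most UMIs of a gene held 60.5% and 68.6% of Glul UMIs, 39.7% and 47.2% of Slc1a2 UMIs, 31.3% and 36.5% of Oat UMIs, and 22.0% and 25.4% of Cyp2e1 UMIs.

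Other genes of the central zone were higher in the Glul-rich cells, and in both libraries alike. Slc1a2 had 2482 CPM in Glul-rich against 614 CPM in Glul-poor cells of the library labelled DKO, a ratio of 4.04 (3.68 to 4.45). In the library labelled WT it had 2312 against 481 CPM, a ratio of 4.81 (4.26 to 5.43). Oat had 4762 against 1728 CPM (ratio 2.76) in the library labelled DKO and 6126 against 1735 CPM (ratio 3.53) in that labelled WT. Slc22a3, an organic cation transporter, had only 42 UMIs in Glul-rich and 16 in Glul-poor cells and differed most after Glul itself, with ratios of 8.05 (3.66 to 19.5) and 8.44 (3.29 to 24.3). Airn, the noncoding RNA that overlaps Igf2r next to Slc22a3, stood at 4.11 and 3.49. Gstm3 stood at 4.24 and 4.21, Slc13a3 at 3.52 and 3.88, Rdh9 at 2.93 and 2.22, Lhpp at 2.57 and 3.31, Vldlr at 2.97 and 3.36, and Gulo at 1.98 and 2.54. Lrmda and Cib2 also stood among the highest, at 3.92 and 3.15 and at 3.37 and 4.70.

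The more widely spread markers differed less between the ranges. Cyp1a2 stood at 1.89 and 1.45, Cyp2c69 at 1.70 and 1.61, and Cyp2e1 at 1.32 and 1.38. Hnf4a, with 300 CPM in Glul-rich and 282 CPM in Glul-poor cells over both libraries, had a ratio of 1.06 (0.906 to 1.25). Lgr5 stood at 2.35 (1.45 to 3.77) over both libraries, on 33 and 44 UMIs. All 29 pericentral landmarks tested were higher in the Glul-rich cells, 17 of them past 1.5-fold, with a median log2 ratio of 0.69 against 0.03 over all genes tested. For reference, 5.95% of the 5412 genes tested were past the fold on the high side and 5.34% on the low side. Summed per cell and without Glul, the 31 other pericentral landmarks had medians of 31610 CPM in Glul-rich and 18621 CPM in Glul-poor cells labelled DKO, and 31771 and 18362 CPM in those labelled WT. In cluster 8 the medians were 12955 and 12446 CPM, so the Glul-poor members still stood above it.

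The Glul-poor members carried more of the genes of the middle and portal lobule. Ccnd1, cyclin D1, had 20.7 CPM in Glul-rich against 236 CPM in Glul-poor cells labelled DKO, a ratio of 0.0880 (0.0398 to 0.169), and 41.3 against 290 CPM in those labelled WT, a ratio of 0.143 (0.0704 to 0.259). The urea cycle genes Arg1, Cps1 and Ass1 stood at 0.215 and 0.276, at 0.235 and 0.347, and at 0.331 and 0.460. Igfbp2 and Hamp2, which belong to the middle of the lobule, stood at 0.229 and 0.285 and at 0.421 and 0.315. Ddah1, which degrades methylated arginines, stood at 0.237 and 0.151. Of 5 midlobular landmarks all were lower in the Glul-rich cells and past the fold, of 8 urea cycle genes 7 were lower with 4 past the fold, and of 26 periportal landmarks 25 were lower with 10 past the fold. Cyp2f2 did not follow, at 0.733 and 1.17. The summed periportal landmarks had medians of 22475 CPM in Glul-rich and 28394 CPM in Glul-poor cells labelled DKO, and 22431 and 27397 CPM in those labelled WT, against 44113 and 41975 CPM in cluster 7.

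Cholesterol synthesis was lower as a group in the Glul-rich cells. Of 21 genes with enough UMIs, 20 were lower and 12 past the fold, with medians of -0.73 in the library labelled DKO and -0.71 in that labelled WT. Cyp51, a demethylase of lanosterol, had 11 UMIs in Glul-rich against 89 in Glul-poor cells labelled DKO (ratio 0.344, 0.166 to 0.646) and 2 against 79 in those labelled WT (ratio 0.0935, 0.0111 to 0.349). Sqle, which epoxidises squalene, stood at 0.223 and 0.189, Idi1, an isomerase of isoprene units, at 0.285 and 0.451, and Msmo1 at 0.421 and 0.459. Cyp8b1, the sterol 12-alpha-hydroxylase, stood at 0.158 and 0.300. Hbb-bs, a haemoglobin gene, had 2 UMIs in Glul-rich against 58 in Glul-poor cells labelled DKO, and its part in these values was not tested.

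The single libraries were also set beside the pooled ratio that chose these genes, which is a description since the pooled ratio holds both. Of the 322 genes past 1.5-fold higher in Glul-rich cells over both libraries, 300 were above 1 in each library and 138 past the fold in each. Of the 289 past the fold on the low side, 270 were below 1 in each library and 144 past the fold in each. Nuclear-retained and ribosomal-locus RNA had a median of 0.82 in the library labelled DKO and 0.33 in that labelled WT. Gm42418, which lies over ribosomal RNA sequence, stood at 2.18 and 1.08.

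**Figure D3:**
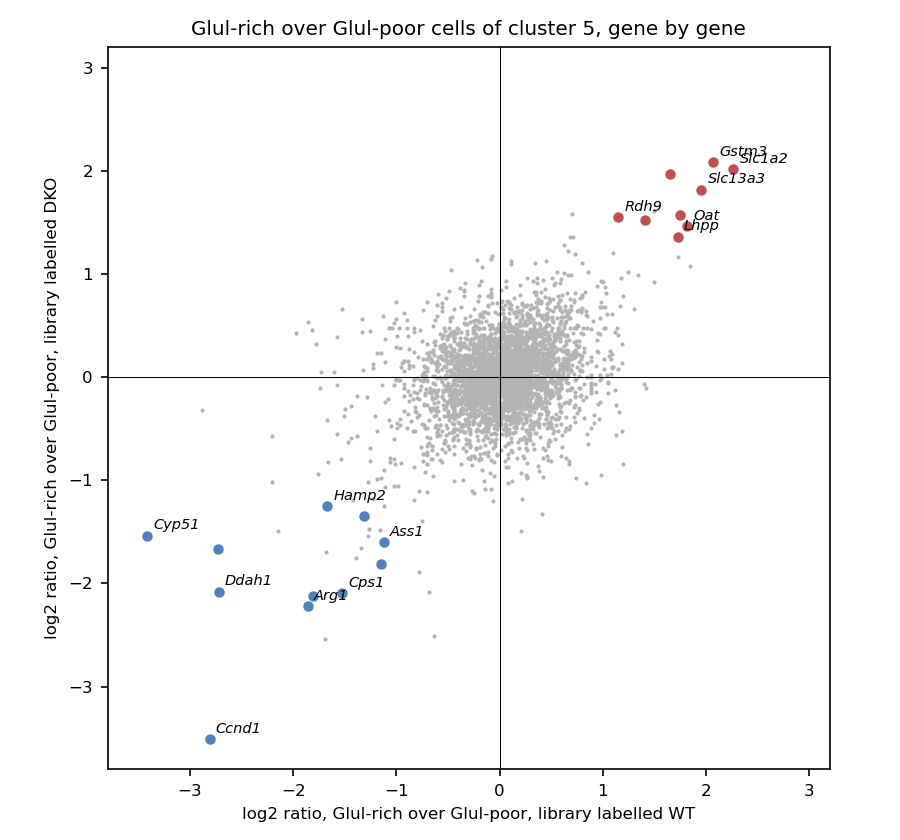
Log2 CPM ratios of Glul-rich over Glul-poor cells of cluster 5, with the library labelled DKO on the vertical and that labelled WT on the horizontal axis, for 3637 genes with at least 100 summed UMIs and a UMI in each range and library, Glul left out. The 20 marked genes are coloured, red where higher and blue where lower in Glul-rich cells, and they lie in the corners where both libraries have the same sign.

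Between the libraries, the pericentral programme of the members stood nearly level. The cluster was formed on counts that hold these landmarks, so cells of either library join it partly by them. Membership therefore limits how far the landmarks can differ, and the level median is a description. The same landmarks do not lead the other clusters set beside it, so those medians are not like for like. Of 27 pericentral landmarks with at least 100 UMIs in cluster 5, 13 were higher in the library labelled DKO and 14 lower (median log2 ratio -0.02, against 0.01 over all 3735 genes tested). The shares past the fold were 2.41% higher and 3.34% lower in the other hepatocytes, 3.12% and 2.68% in cluster 7, and 1.84% and 2.59% in cluster 8. Of the genes tested in cluster 5, 4.42% were at least 1.5-fold higher and 2.54% at least 1.5-fold lower, and 1 pericentral landmark was past the fold. That gene was Cyp2a5, a coumarin hydroxylase, with 797 CPM in the library labelled DKO and 460 CPM in that labelled WT, a ratio of 1.73 (1.57 to 1.91). Cyp2a5 stood at 1.71 in cluster 8 and at 1.01 over the other hepatocytes together. Cyp2c37 was on the low side at 0.693 (0.627 to 0.767). The other hepatocytes had a pericentral median of -0.31 and cluster 7 one of -0.45. Cluster 7 made up a larger share of the other hepatocytes in the library labelled DKO, and its part in their median was not tested. In cluster 7 some landmarks, such as Glul, Slc1a2, Oat and Cyp2e1, lay under the T cell level in both libraries, and others lay above it. Cluster 8 was level too, at -0.02. In T cells, set beside them as a gauge of free RNA, the same genes had a median of -1.0, on cells with median depths of 1887 and 2685 UMIs.

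Glul itself had a ratio of 1.22 (1.16 to 1.28) over the whole cluster, the library labelled DKO being higher. Within the Glul-rich cells it was 1.02 (0.973 to 1.08) and within the Glul-poor cells 0.791 (0.649 to 0.963). The ranges are cut on Glul itself, so these values are limited by the cut and give no separate reading of Glul. The share of Glul-rich cells was 23.9% in the library labelled DKO and 18.8% in that labelled WT, and its part in the whole-cluster ratio was not tested. Slc1a2 had 1.28 (1.19 to 1.38) over the cluster and 1.07 (0.971 to 1.19) within Glul-rich cells. Oat had 0.948 (0.907 to 0.991) over the cluster and 0.777 (0.728 to 0.830) within Glul-rich cells. Cyp1a2, at 1.01 (0.941 to 1.08), and Cyp2c69, at 0.946 (0.839 to 1.07), had intervals that include 1.

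Periportal transcripts were mostly lower in the members labelled DKO, and the 4 past the fold lay near the T cell level. Of 24 periportal landmarks with enough UMIs 17 were lower and 7 higher, with 4 past the fold and a median of -0.24. Cyp2f2 had 53 UMIs, or 30.7 CPM (23.0 to 40.1), among members labelled DKO and 111 UMIs, or 84.8 CPM (69.7 to 102), among those labelled WT, a ratio of 0.362 (0.256 to 0.506). T cells, which do not use the gene, held 104 and 177 CPM. Gls2 had 35.3 and 71.8 CPM (ratio 0.492, 0.350 to 0.686) beside 46.4 and 47.6 CPM in T cells. Hsd17b13, a lipid droplet enzyme, had 26.6 and 47.4 CPM (ratio 0.562) beside 46.4 and 56.3 CPM in T cells, and Hsd17b6, a steroid dehydrogenase, had 27.8 and 42.0 CPM (ratio 0.661) beside 61.5 and 95.2 CPM. All 4 lay under the T cell level in the library labelled DKO, and 3 of them in that labelled WT, Gls2 being the exception. The part of free RNA in these ratios was not tested.

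Of the periportal landmarks, 17 stood above the T cell level in both libraries. Among them 10 were lower and 7 higher in the library labelled DKO, with a median of -0.04. Cps1 had 2224 CPM in the library labelled DKO and 2914 CPM in that labelled WT (ratio 0.763, 0.730 to 0.798), beside 557 and 965 CPM in T cells. Otc stood at 0.754 (0.672 to 0.846) and Uroc1, of histidine breakdown, at 0.720 (0.610 to 0.849). Arg1, of the urea cycle, and Pck1, of gluconeogenesis, had 590 and 2266 CPM in the library labelled DKO and 513 and 1893 CPM in that labelled WT. Cps1 stood at 0.828 (0.789 to 0.868) in Glul-poor and at 0.559 (0.475 to 0.659) in Glul-rich cells.

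Among genes with at least 100 summed UMIs, the largest ratio between the libraries in cluster 5 belonged to Cmss1 (chromosome 16, 57302000 to 57606864), with 1274 UMIs, or 737 CPM, in the library labelled DKO and 272 UMIs, or 208 CPM, in that labelled WT, a ratio of 3.55 (3.11 to 4.06). Gm42418 had 9700 and 3904 CPM (2.48, 2.41 to 2.56), Cdk8, a kinase of the Mediator complex, 159 and 66.5 CPM (2.39, 1.87 to 3.07), Camk1d, a calcium-dependent kinase, 570 and 284 CPM (2.01, 1.78 to 2.27), and Malat1, a nuclear long noncoding RNA, 4088 and 2275 CPM (1.80, 1.72 to 1.88). T cells had ratios of 8.62 for Cmss1, 3.92 for Gm42418, 6.76 for Cdk8, 4.04 for Camk1d and 1.40 for Malat1, all above 1. AY036118, over ribosomal RNA like Gm42418, went the other way, with 192 and 410 CPM (0.468, 0.407 to 0.538). Of 9 nuclear-retained and ribosomal-locus RNAs with enough UMIs, 6 were past the fold higher and 1 lower (median 0.93, against 0.77 in the other hepatocytes). Clusters 7 and 8 had medians of 1.68 and 0.97.

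Among genes that hepatocytes are known to use, Dnajc12, a co-chaperone of the aromatic amino acid hydroxylases, had 263 CPM in the library labelled DKO and 77.9 CPM in that labelled WT, a ratio of 3.37 (2.71 to 4.22). It was at 3.34 in Glul-poor and 3.49 in Glul-rich cells, and at 3.76 over the other hepatocytes. Nfe2l1, a transcription factor that induces proteasome genes, had 120 and 50.4 CPM (2.38, 1.79 to 3.18), at 2.30 and 2.32 in the Glul-poor and Glul-rich cells. Arf5, a small GTPase of membrane traffic, had 128 and 61.1 CPM (2.10, 1.62 to 2.75), against 1.06 in cluster 8 and 2.04 in cluster 7. Ugt1a1, which conjugates bilirubin, had 91 and 29 UMIs (2.38, 1.55 to 3.75), and was at 0.884 over the other hepatocytes. Klf15, a regulator of amino acid breakdown, stood at 1.72 (1.38 to 2.16), and Jun, an early-response factor, at 1.92 (1.55 to 2.38).

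Major urinary proteins, carriers of pheromones that the liver secretes, differed among themselves. Mup18 had 175 and 57.3 CPM (3.05, 2.36 to 3.98), Mup16 had 88.5 and 32.1 CPM (2.76, 1.95 to 3.98), Mup12 stood at 2.16 (1.45 to 3.29) and Mup11 at 1.56 (1.40 to 1.75). Mup3 had 2355 and 3610 CPM (0.652, 0.625 to 0.680). Of 7 with enough UMIs, 4 were past the fold higher and 1 lower, with a median of 0.64. The median was -0.005937 once each cell was thinned to 1000 UMIs. The rule of at least 100 UMIs was then applied to the thinned counts, so members with few UMIs can drop out. The medians can thus cover different genes and are not a check of direction. Mup18, Mup16 and Mup3 each kept their direction after thinning, which draws from the same counts. These genes are near copies, so UMIs may be assigned to the wrong member. Mup18 stood at 1.16 over the other hepatocytes but at 2.13 in cluster 8 and 1.90 in cluster 7. The median of the list was -0.47 in the other hepatocytes, 0.47 in cluster 8 and 0.24 in cluster 7.

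Ribosomal protein genes were mostly higher, with 65 of 76 above 1 in the library labelled DKO, 9 of them past the fold and a median of 0.25. The median was 0.02 in the other hepatocytes, 0.05 in cluster 7 and 0.15 in cluster 8. This list was added after the values were seen. Rps2 had 1000 and 566 CPM (1.77, 1.62 to 1.93), and Rpl4 had 322 and 172 CPM (1.87, 1.60 to 2.20). Of 27 proteasome genes 18 were higher and 9 lower, with Psmc1 at 1.62 (1.21 to 2.19) and Psmb4 at 0.673 (0.530 to 0.854). The proteasome median was 0.15 in cluster 5, with 1 gene past the fold. It was -0.36 in the other hepatocytes, -0.004 in cluster 7 and -0.08 in cluster 8.

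Mitochondrially encoded transcripts were uneven. mt-Co3 and mt-Co1, subunits of cytochrome oxidase, had 20410 and 23588 CPM in the library labelled DKO and 34268 and 34892 CPM in that labelled WT, ratios of 0.596 (0.587 to 0.604) and 0.676 (0.667 to 0.685). mt-Nd2, of complex I, had 8715 and 5347 CPM, a ratio of 1.63 (1.58 to 1.68). mt-Co3 and mt-Co1 stood at 0.673 and 0.759 in cluster 7, at 0.882 and 0.964 in cluster 8 and at 0.624 and 0.734 in T cells, and at 1.18 and 1.33 over the other hepatocytes together. The median of all 13 was -0.12, where the other hepatocytes had 0.87 and clusters 7 and 8 had 0.07 and 0.46. Members labelled DKO also had the lower median mitochondrial share, 13.3% against 15.3%. Nuclear genes of oxidative phosphorylation had a median of 0.07 (16 higher and 10 lower), against -0.23 in the other hepatocytes. Cluster 7 was alike at 0.08, and cluster 8 stood at -0.20.

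On the low side, Ccdc152 (chromosome 15, 3280070 to 3303526) had 111 and 272 CPM, a ratio of 0.409 (0.341 to 0.488), and it was at 0.176 over the other hepatocytes and 0.207 in T cells. Cyp3a44, a P450 of the Cyp3a family, had 176 and 302 CPM (0.583, 0.50 to 0.679). App, the amyloid precursor gene, had 42 and 74 UMIs (0.430, 0.287 to 0.636), and stood at 0.991 over the other hepatocytes. Gm10076 and Gm6135, annotated as long noncoding RNAs, stood at 0.488 (0.422 to 0.563) and 0.409 (0.271 to 0.609). Cyp4a14, a fatty acid hydroxylase that leads the cluster, stood at 0.673 (0.629 to 0.720), and Sult2a1, a sulfotransferase of steroids and bile acids, at 0.519 (0.379 to 0.708).

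**Figure D4:**
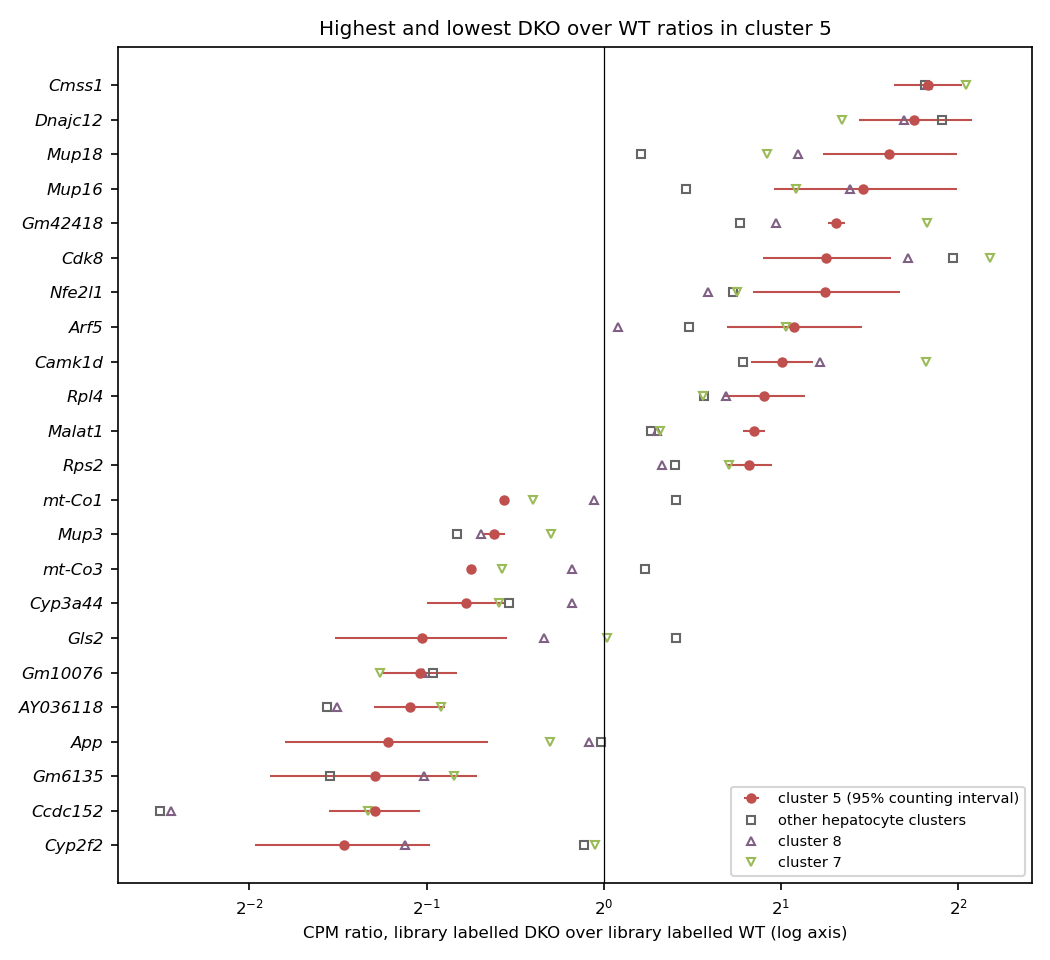
CPM ratios of the library labelled DKO over that labelled WT (log axis) for the 12 highest and 11 of the 12 lowest genes of cluster 5 by the bound of the interval nearest 1. Filled circles with bars are cluster 5 with its 95% counting interval, and open symbols are the other hepatocytes, cluster 8 and cluster 7. Cmss1 and Dnajc12 are high in all 4, while mt-Co1 and mt-Co3 are low in cluster 5 and in cluster 7 (0.759 and 0.673) and above 1 over the other hepatocytes together (1.33 and 1.18).

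Genes of lipoprotein uptake had ratios near 1 in the members for the most part. Lrp1, an endocytic receptor of lipoprotein remnants, had 403 UMIs (233 CPM) in the library labelled DKO and 214 UMIs (163 CPM) in that labelled WT, a ratio of 1.43 (1.21 to 1.69), and it stood at 1.45 in both the Glul-rich and the Glul-poor cells. Of 9 lipoprotein receptors and regulators with enough UMIs, 6 were higher and 3 lower (median 0.10), none past the fold. Of 12 epsin and clathrin adaptor genes 8 were higher and 4 lower (median 0.12), none past the fold, with Picalm at 0.706 (0.567 to 0.878). Apoe had 76 and 69 UMIs, 44.0 and 52.7 CPM, a ratio of 0.834 (0.594 to 1.17).

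Cholesterol synthesis had no gene past the fold in cluster 5. Of 16 cholesterol synthesis genes 4 were higher and 12 lower in the library labelled DKO (median -0.14). The other hepatocytes had a median of 0.13, cluster 7 one of 0.22 and cluster 8 one of -0.04. Fatty acid and triglyceride synthesis had 10 higher and 12 lower, 2 of the lower ones past the fold. Fatty acid oxidation and ketogenesis had 17 higher and 11 lower (median 0.14), 2 past the fold. These were Acaa1a, a peroxisomal thiolase, at 1.54 (1.15 to 2.07) and Etfdh, which passes electrons to the respiratory chain, at 1.54 (1.12 to 2.13). Bile acid genes had 12 higher and 12 lower, and acute phase genes 13 higher and 10 lower. Glutathione and Nrf2 target genes had 8 higher and 13 lower (median -0.25), and the other hepatocytes had a median of -0.36 there. Clusters 7 and 8 had -0.22 and -0.17.

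**Figure D5:**
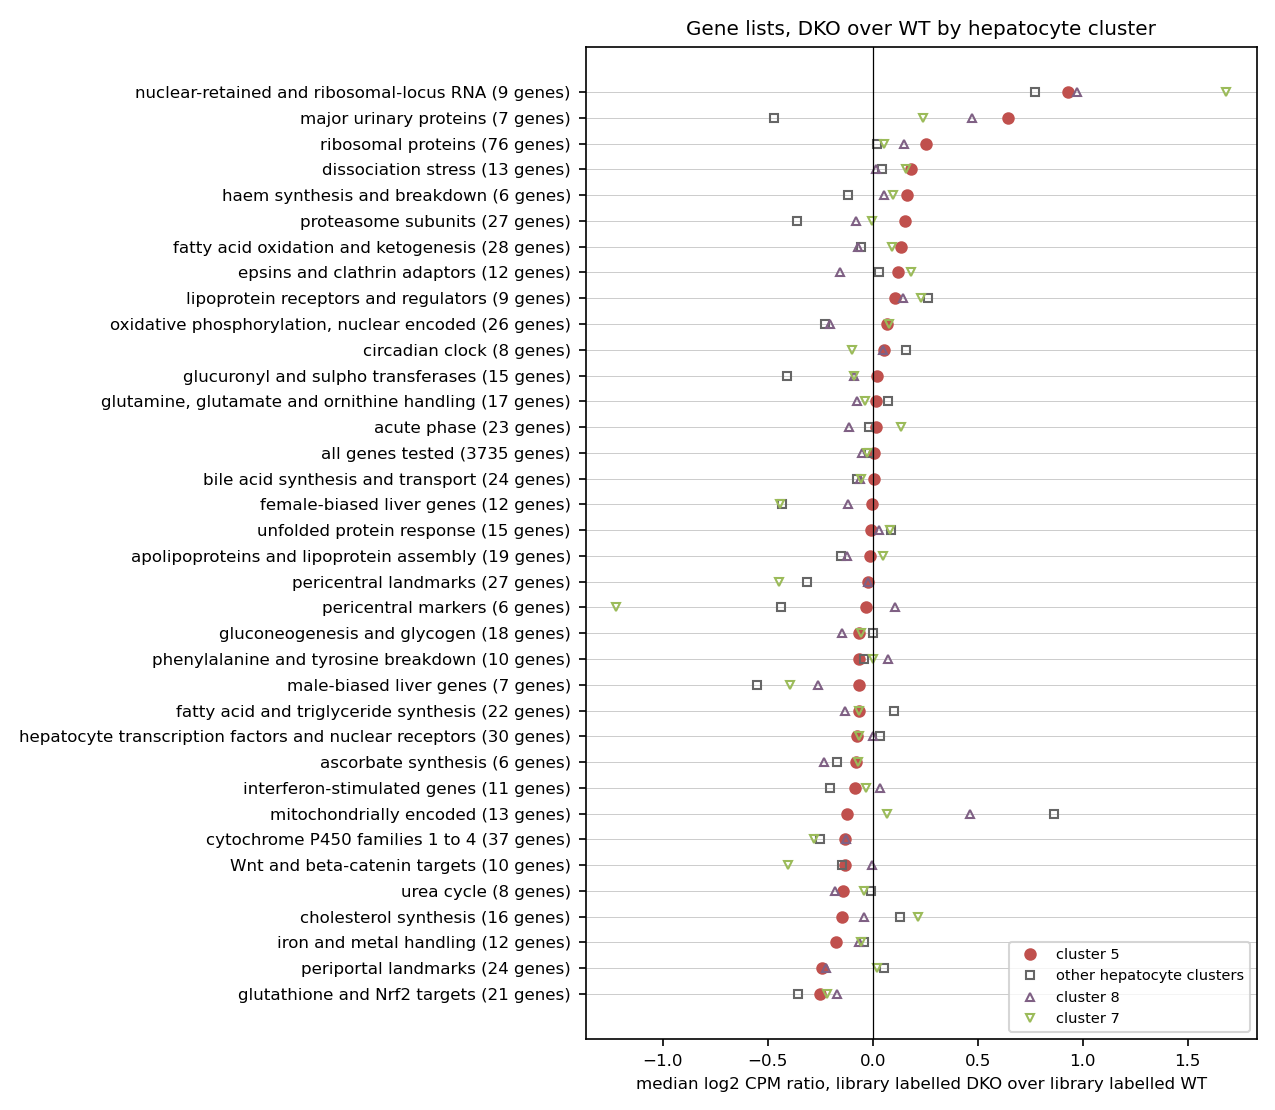
Median log2 CPM ratios of the library labelled DKO over that labelled WT for each gene list with at least 6 genes tested, in cluster 5 (filled), the other hepatocytes, cluster 8 and cluster 7 (open). Cluster 5 and the other hepatocytes stand farthest apart for major urinary proteins (0.64 against -0.47) and mitochondrially encoded transcripts (-0.12 against 0.87). For major urinary proteins clusters 8 and 7 are also above 0, at 0.47 and 0.24. For major urinary proteins the cluster 5 value was -0.005937 once each cell was thinned to 1000 UMIs, over the genes that still had enough UMIs.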

How the data were processed

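The submitters' processing notes name Cell Ranger 7.1.0 and mm10. Raw UMI counts by cell were deposited by the authors beside per-cell metadata from which the cluster, cell type and library were taken. In the deposited counts of the liver libraries on the ApoE background, cells had 500 or more UMIs, 202 to 2499 detected genes and at most 20.0% mitochondrial UMIs, and the ceiling on genes limits how deep a member can be. Cell filters and doublet removal by the authors were not stated in these sources, and no doublet caller was run. In their place, cells with at least 2 UMIs of other cell types' markers were left out as an alternative. The metadata table has 26 other columns that were not used. Per library and cluster, UMIs were summed with Python 3.11.15 (numpy 2.4.6, scipy 1.17.1, pandas 2.3.3), given as CPM with exact Poisson intervals, and compared as ratios with exact conditional binomial intervals. Shares have exact Clopper-Pearson intervals, at 95%, and PCR or capture effects are not covered. Genes with at least 100 summed UMIs were set against a 1.5-fold rule (50 for Glul-rich against Glul-poor cells), and the interval code was tested on simulated data. Named genes were the 12 highest and 12 lowest by the interval bound nearest 1, list members by the same rank, and for cluster 5 over other hepatocytes the 20 highest and 10 lowest. The genes named between Glul-rich and Glul-poor cells, and those given for a role or after their values were seen, follow no such rank, among them Ugt1a1, Klf15, Jun, Cyp4a14 and Sult2a1. Some genes that these rules reach are not reported here. The members, the gene lists and the Glul ranges were chosen with earlier results of these data known. Reference sequences are from RefSeq (GRCm38.p6) and gene positions from GENCODE vM21.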

Additional observations from a re-analysis of the deposited data

How the results depend on the processing

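No alternative that leaves out a replicate could be run, since each group is 1 library. No paired analysis was possible because each group has 1 library and no result comes from a test across samples. Counts of genes past the fold follow the depth asked of a gene. Between the libraries, 343 were higher and 223 lower with at least 50 UMIs, 76 and 30 with at least 200, 2987 and 2261 with no filter, 45 and 40 after thinning to 1000 UMIs, and 22 and 9 at 2-fold, in place of 165 and 95. For cluster 5 over the other hepatocytes, 721 were higher with every cell weighted alike, 1971 higher and 5133 lower with no filter, and 80 and 233 at 2-fold, in place of 475 and 769. For Glul-rich over Glul-poor cells, 159 were lower where poor meant no Glul UMI, 114 were higher and 151 lower after thinning, and 137 and 115 with at least 100 UMIs, in place of 322 and 289. The share of members with a Glul UMI follows the depth: 33.3%, 48.7% and 60.6% in the library labelled DKO at 500, 2000 and all UMIs, and 49.4% and 67.7% in that labelled WT at 2000 and all. The median of the major urinary proteins was -0.005937 after thinning, in place of 0.64. The thinned median covers only genes that still had at least 100 UMIs, so the medians can cover different genes. Named genes between the libraries kept their direction in 188 of 188 values under the alternatives, 181 of them past 1.5-fold. The 7 others belong to mt-Co1, which is not past it in the reported value either, and Mup3. These genes were chosen for their ratios in the same counts, and the alternatives reuse the same cells. A kept direction was thus likely from the start and is no separate support. The alternatives without Glul-rich cells and all on the Glul ranges were chosen after seeing the data.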
